A study of Mus musculus with 6 samples.

Results

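The Rab, Arf and Arl GTPases are small proteins that switch between a GTP-bound form, which sits on a membrane and recruits partners, and a GDP-bound form, and so direct vesicles between compartments. Rab proteins mark single compartments and steer transport, tethering and fusion, Arf proteins build vesicle coats and act on phosphoinositides, and Arl proteins are their relatives at the Golgi, in cilia and on microtubules. In endothelial cells this machinery takes up and recycles surface receptors and junction proteins, and Rab GTPases of the exocytic route act in the release of Weibel-Palade bodies, the storage granules of von Willebrand factor. The members described here are all genes that a probe table names with 1 symbol of the form Rab, Arf or Arl plus a number. There were 51 such genes among 11138 named genes, 41 of them Rab, 6 Arf and 4 Arl, and they held 106 of the 32448 spots on each array. By their known site of action 15 were classed as endosomal, 27 as secretory and 9 as other. The last class covers cilia, the cytoskeleton, autophagy, lysosome-related organelles and little studied members.

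The study compared sorted endothelial cells of mice exposed to tobacco smoke with those of control mice on 6 arrays, each hybridised with both RNAs. Mice smoked for 6 weeks were paired with 1-week control mice on a couple of arrays of opposite dye orientation, and with 6-week control mice on 1 array. On the arrays against 1-week control, smoke and the difference in time between smoked and control mice cannot be told apart. The fitted 6-week means give these arrays together the same weight as the array against 6-week control. Mice smoked for 1 week were paired with control mice on 3 arrays, and 1 of these was a dye reversal. The time of the control mice in the 1-week comparison was not stated. The tissue, strain and sort markers were not stated either, nor whether arrays came from separate animals or shared control RNA, so the p-values measure the spread between arrays, which may be technical. In RNA from a sorted population, a changed share of cells and a changed amount of RNA per cell cannot be told apart.

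All values are log2 ratios of the 2 channels, one value per array after averaging the spots of a gene. The labels name the smoke sample first and give it as channel 1 on all 6 arrays, so a positive ratio is likely higher after smoke. No source used here states the direction or whether dye-reversed arrays were turned back before deposit, so every array kept its deposited sign. Values with the 6-week reversal or both reversals given the other sign are printed for many members, but not for all whose values differ. Where none is printed, the value may still depend on that sign. Values of single arrays run in 1 order throughout, at 6 weeks the array against 1-week control, its dye reversal and the array against 6-week control, and at 1 week the dye reversal and then the other two. The arrays agreed only loosely. Over 11138 named genes the array pairs of the 6-week comparison correlated at -0.03 to 0.09 and those of the 1-week comparison at 0.07 to 0.15, whereas the 2 dye-reversed arrays, 1 from each time, correlated at 0.27. These correlations describe genes that share arrays and are not independent points. Paired spots of one gene on one array correlated at 0.21 to 0.42. A ratio does not show how strongly a gene is expressed, so the endothelial identity of the cells could not be checked from marker levels. Of 18 endothelial markers 15 were measured, and their median log2 ratio was -0.21, -0.48 and 0.01 on the 6-week arrays and -0.21, -0.18 and -0.17 on the 1-week arrays. Its part in the results below was not tested.

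Among the members, Rab5a had the smallest p of the positive 1-week ratios and Rab4b that of the negative ones, and both proteins act at the early endosome. Their promoters are shown because each had the smallest 1-week p of its sign, although only Rab5a was called in any fit. Each 300-base window spans the annotated start of the gene, comes from RefSeq on GRCm38.p6 and is written 5′ to 3′ on the strand of the gene. Capitals mark the E-box CACGTG, the xenobiotic response element core GCGTG, which reads CACGC on the other strand, and the cAMP response element TGACGTCA. The Rab5a window lies at chr17:53478984-53479283 on the plus strand and the Rab4b window at chr7:27178834-27179133 on the minus strand.
Rab5a: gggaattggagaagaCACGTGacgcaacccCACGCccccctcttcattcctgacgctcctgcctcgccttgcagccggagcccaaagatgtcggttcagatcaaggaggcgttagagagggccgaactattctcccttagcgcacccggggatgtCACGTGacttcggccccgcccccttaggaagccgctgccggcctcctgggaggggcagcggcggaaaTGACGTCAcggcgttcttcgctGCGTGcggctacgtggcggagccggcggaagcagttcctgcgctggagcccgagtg
Rab4b: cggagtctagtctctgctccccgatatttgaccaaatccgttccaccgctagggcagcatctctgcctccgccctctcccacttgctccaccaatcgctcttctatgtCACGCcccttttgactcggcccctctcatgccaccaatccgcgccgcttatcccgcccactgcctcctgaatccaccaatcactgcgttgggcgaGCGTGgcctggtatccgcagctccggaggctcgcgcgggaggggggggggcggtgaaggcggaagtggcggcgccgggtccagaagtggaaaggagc

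Counted from 1 at the 5′ end of the window, the Rab5a promoter held the E-box at positions 16 and 156, the xenobiotic response element core at 31 on the opposite strand and at 245, and the cAMP response element at 223. The Rab4b promoter held the xenobiotic response element core at position 109 on the opposite strand and at 204, and the antioxidant response element core TGACNNNGC, which is not in capitals, at 120. Both strands were searched for all 4 motifs, and the cAMP response element and the E-box are their own reverse complements. RefSeq windows were matched for 42 of the 51 members, with 54 windows in all. In at least 1 window 18 members held GCGTG, 9 held TGACNNNGC, 7 held CACGTG and 2 held TGACGTCA. Counted by window, 20 of the 54 held GCGTG, 11 held TGACNNNGC, 7 held CACGTG and 2 held TGACGTCA. Of all 32851 windows, 32.4% held GCGTG, 12.4% held TGACNNNGC, 7.15% held CACGTG and 1.79% held TGACGTCA. These matches describe letters and not sites in use.

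Rab5a, which directs fusion of incoming vesicles with early endosomes, was the member with the smallest 1-week p. Its log2 ratio was -0.29 and -0.50 on the 6-week arrays against 1-week control and 0.32 on the array against 6-week control, whereas it was 1.13, 1.02 and 1.02 on the 1-week arrays. All 3 1-week arrays lay above all 3 6-week arrays, and both spots were positive on every 1-week array, between 0.86 and 1.19. The mean was -0.04 ± 0.23 at 6 weeks and 1.06 ± 0.19 at 1 week (SE, limma). The unadjusted p of the 1-week ratio was 0.00208, and the adjusted p over all 19242 features was 0.455. Among the 5625 genes whose spots never differed by more than 1 log2 unit, the adjusted p was 0.0241. The 6-week minus 1-week difference was -1.10 ± 0.30, with an unadjusted p of 0.0133 and an adjusted p of 0.951. That 1-week call among genes with agreeing spots was lost when any single 1-week array was left out, with adjusted p between 0.0613 and 0.158, and with only the 4 arrays that are not dye-reversed, where the ratio was 1.02 and the adjusted p 0.142. With both dye-reversed arrays given the other sign, the 1-week ratio was 0.30 and the difference between times -0.09.

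Rab27b, which acts in the docking and release of secretory granules, was positive on 5 of the 6 arrays. Its log2 ratio was 1.03, -0.14 and 0.86 on the 6-week arrays, the negative value being the dye reversal, and 0.86, 0.65 and 1.18 on the 1-week arrays. The mean was 0.65 ± 0.23 at 6 weeks, with an unadjusted p of 0.0322, and 0.89 ± 0.19 at 1 week, with an unadjusted p of 0.0039 (SE, limma). Averaged over both times it was 0.77 ± 0.15. Over all features the adjusted p was 0.515 at 1 week and 0.494 for the average. Among genes with agreeing spots it was 0.0374 at 1 week and 0.0288 for the average. The 1-week call was lost on leaving out any array but the 6-week dye reversal, with adjusted p between 0.0804 and 0.239, and the 1-week ratio was 0.32 with both dye-reversed arrays given the other sign. The average lost its call on leaving out any array but the 2 dye reversals, with adjusted p between 0.0515 and 0.314, and when the 6-week dye reversal was turned, where the adjusted p was 0.158.

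**Figure D1:**
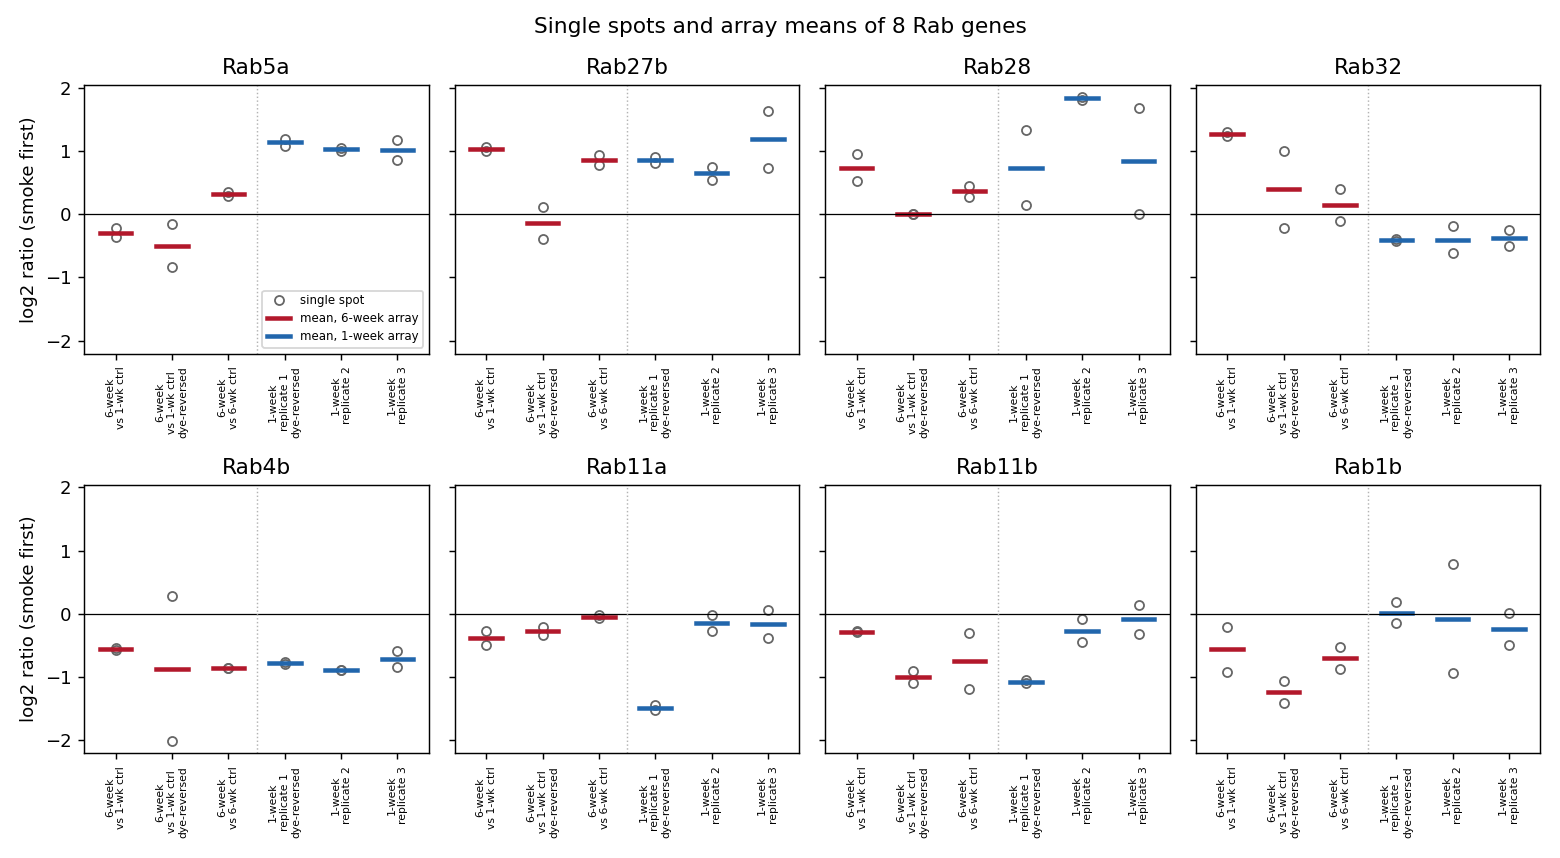
Single spots (open circles) and array means (bars) of 8 Rab genes, with the log2 ratio, smoke first, on the vertical axis and the 3 6-week arrays left of the 3 1-week arrays. The 1-week means of Rab5a lie between 1.02 and 1.13, while the paired spots of Rab4b and Rab28 lie far apart on single arrays.

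No member and no feature passed an adjusted p of 0.05 at either time when all features were tested. At 1 week 0% of 19242 features were called, with a smallest adjusted p of 0.178, and at 6 weeks 0%, with a smallest adjusted p of 0.556. The 6-week minus 1-week difference and the average of both times also had 0% called. At an unadjusted p under 0.05 in limma, 5 members stood out at 6 weeks, Rab1b, Rab27b, Rab37, Rab43 and Rab4b, where the share over all features was 4.12%. At 1 week there were 4, Rab27b, Rab28, Rab4b and Rab5a, against 6.65% of all features. For the 6-week minus 1-week difference there were 4, Rab1b, Rab32, Rab37 and Rab5a, against 3.55%. For the average of both times there were 6, Rab11b, Rab1b, Rab27b, Rab28, Rab4b and Rab5a, against 6.31%. As shares of the 51 members these counts were 9.8% at 6 weeks, 7.84% at 1 week, 7.84% for the difference and 11.8% for the average. Counts this small do not set the family apart from other genes.

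Genes with agreeing spots are those whose spots differed by at most 1 log2 unit on every array. This held for 27 of the 51 members, or 52.9%, and for 50.5% of all named genes. It held for 11 of 15 endosomal members, 12 of 27 secretory members and 4 of 9 others. Among the 5625 such genes 0.213% were called at 6 weeks, with 0 members, and 1.81% at 1 week, with 2 members, Rab5a and Rab27b. For the average of both times 1.83% were called, with 1 member, Rab27b, and for the 6-week minus 1-week difference 0%. In limma, the number of called genes at 1 week was 57 positive and 45 negative.

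Of the 6 early endosomal members 2 had positive and 4 negative means at 6 weeks, and 4 had positive and 2 negative means at 1 week. Rab4b, which returns receptors quickly from early endosomes to the surface, was negative on all 6 arrays. Its log2 ratio was -0.56, -0.87 and -0.85 on the 6-week arrays and -0.78, -0.88 and -0.71 on the 1-week arrays. The mean was -0.78 ± 0.18 at 6 weeks and -0.79 ± 0.15 at 1 week, with unadjusted p of 0.00619 and 0.00235 in limma, and the average of both was -0.79 ± 0.12 with an adjusted p of 0.390. Its 2 spots were close on 5 arrays but read -2.01 and 0.28 on the 6-week dye reversal, so it was not among the genes with agreeing spots. With both dye-reversed arrays given the other sign, the mean was -0.35 at 6 weeks, -0.27 at 1 week and -0.31 on average. Its paralog Rab4a had -0.13, 0.10 and -0.01 at 6 weeks and 0.22, 0.17 and 0.20 at 1 week. The 1-week arrays of Rab4a were all positive, those of Rab4b all negative, and the difference between the paralogs was not tested.

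Rab5b, the other Rab5 paralog measured, stayed near 0, with -0.35, 0.08 and 0.27 at 6 weeks and -0.12, -0.05 and -0.11 at 1 week. Its 1-week arrays lay far below those of Rab5a, although its spots differed by up to 1.59. Rab31, a Rab5 relative in trafficking between the trans-Golgi and endosomes, was positive on all 6 arrays, at 0.13, 0.29 and 0.15 at 6 weeks and 0.30, 0.39 and 0.22 at 1 week. Its mean was 0.18 ± 0.18 at 6 weeks and 0.30 ± 0.15 at 1 week, or 0.035 and 0.10 with both reversals turned. Rab22a, the remaining early endosomal member, ranged from -0.67 to 0.43 over the 6 arrays.

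Of the late endosomal members, Rab7, needed for transport to lysosomes, had -0.52, -0.51 and -0.34 on the 6-week arrays and 0.35, -0.12 and 0.75 on the 1-week arrays. All its 6-week values lay below all its 1-week values, and its spots never differed by more than 0.33. The means were -0.43 ± 0.26 at 6 weeks and 0.33 ± 0.21 at 1 week, and the difference of -0.76 had an unadjusted p of 0.0686 and an adjusted p of 0.951 in limma. With both reversals turned the difference was -0.27. Rab9, which returns mannose 6-phosphate receptors from late endosomes to the trans-Golgi, had -0.05, -0.32 and 0.46 at 6 weeks and 0.49, 0.24 and 0.73 at 1 week. Its 1-week mean was 0.49 ± 0.20 with an unadjusted p of 0.0561, and 0.16 with both reversals turned.

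Of the 7 recycling members 5 had negative means at 6 weeks and 5 at 1 week, with medians of -0.19 and -0.03. The 2 Rab11 paralogs, which mark the recycling endosome, were negative on all 6 arrays as deposited. Rab11a had -0.39, -0.27 and -0.04 at 6 weeks and -1.48, -0.14 and -0.16 at 1 week. Rab11b had -0.28, -1.0 and -0.74 at 6 weeks and -1.07, -0.26 and -0.09 at 1 week. The lowest 1-week value of each came from the dye-reversed array, as did the lowest 6-week value of Rab11b. The 1-week mean was -0.60 ± 0.31 for Rab11a and -0.47 ± 0.23 for Rab11b, and without the dye-reversed arrays these were -0.15 and -0.18. Averaged over both times Rab11b was -0.58 ± 0.18, with an unadjusted p of 0.0227. With both dye-reversed arrays given the other sign, the 1-week ratio was positive for both, at 0.39 for Rab11a and 0.24 for Rab11b.

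Arf6, the Arf of the plasma membrane and of clathrin-independent recycling, had -0.94, 0.35 and -0.18 at 6 weeks and 0.30, -0.13 and -0.25 at 1 week, with no common sign at either time. The other recycling members were Rab12, Rab14, Rab17 and Rab25. Their 6-week means lay between -0.29 and 0.22 and their 1-week means between -0.08 and 0.27. None had an unadjusted p under 0.05 in limma at either time.

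Among the secretory members at the endoplasmic reticulum and Golgi, Rab1b had the smallest 6-week p. Rab1b and Rab1a share the step from the endoplasmic reticulum to the Golgi. Rab1b had -0.56, -1.23 and -0.70 on the 6-week arrays and 0.02, -0.08 and -0.24 on the 1-week arrays. All 6-week values lay below all 1-week values. The mean was -0.80 ± 0.19 at 6 weeks, with an unadjusted p of 0.00677 and an adjusted p of 1, and -0.10 ± 0.15 at 1 week. The difference was -0.70 with an unadjusted p of 0.031, and the spots differed by up to 1.73. With the 6-week reversal turned, the 6-week mean was -0.18 and the difference -0.085. Rab1a instead was positive on all 6 arrays, with 0.34, 0.16 and 0.18 at 6 weeks and 0.27, 0.12 and 0.71 at 1 week, and its spots differed by at most 0.46.

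Rab43, a Golgi Rab, was negative on all 6-week arrays, at -0.19, -0.59 and -0.88, whereas its 1-week arrays gave 0.07, 0.33 and -0.33. Its 6-week mean was -0.63 ± 0.25 with an unadjusted p of 0.0482, and -0.34 with the 6-week reversal turned. Rab33a, related to the Golgi protein Rab33b, had -0.17, 0.88 and 0.30 at 6 weeks and 0.53, -0.65 and -0.34 at 1 week. Its highest value at each time was on the dye-reversed array, and its 6-week mean of 0.33 turned to -0.11 when the 6-week reversal was given the other sign. With both reversals turned, its 1-week mean went from -0.16 to -0.51.

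Of the Arf proteins that recruit coats at the Golgi, Arf1 was negative on 5 arrays, with -0.47, -1.08 and 0.00 at 6 weeks and -0.22, -0.25 and -0.38 at 1 week. Its mean was -0.39 ± 0.24 at 6 weeks and -0.28 ± 0.20 at 1 week. The 6-week mean was positive, at 0.15, with the 6-week reversal turned, and -0.77 when the array against 6-week control had its own term. On the array at 0 its spots were 0.08 and -0.08, and its close relatives showed no common sign. Arf2 had 0.48, 0.37 and -0.42 at 6 weeks and -0.09, -0.21 and -0.45 at 1 week, and Arf3 had -0.57, -1.53 and -0.05 at 6 weeks and 0.05, -0.31 and 0.39 at 1 week. The spots of Arf3 differed by up to 4.46, and its 6-week mean of -0.55 became 0.22 with the 6-week reversal turned. Arf4 had -0.48, 0.46 and 0.42 at 6 weeks and 0.28, -0.32 and -0.03 at 1 week, and Arf5 had 0.24, -0.16 and -0.01 at 6 weeks and -0.06, 0.26 and 0.36 at 1 week.

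The other secretory members at the endoplasmic reticulum and Golgi were Rab2a, Rab2b, Rab6a, Rab18, Rab30, Rab33b, Rab36 and Arl1. Their 6-week means lay between -0.41 and 0.19 and their 1-week means between -0.31 and 0.47. With the 6-week reversal turned, the 6-week mean of Rab36 went from -0.04 to 0.50. With both reversals turned, the 1-week mean of Rab33b went from -0.31 to 0.36. The 17 members at these sites had a median of -0.07 at 6 weeks, with 11 negative, and of 0.02 at 1 week, with 8 negative.

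In the exocytic group Rab27a, the paralog of Rab27b, had -1.54, 0.70 and -0.01 at 6 weeks and -0.05, -0.87 and -0.33 at 1 week. Its 1-week values were all negative, those of Rab27b all positive, but the spots of Rab27a differed by up to 4.56. With the 6-week reversal turned, the 6-week mean of Rab27a went from -0.22 to -0.57. Rab8a, which drives transport to the plasma membrane and the cilium, had 0.14, -1.09 and -0.56 at 6 weeks and 0.25, -0.45 and -0.46 at 1 week. Its mean was -0.52 ± 0.25 at 6 weeks and -0.22 ± 0.20 at 1 week, with spots that differed by at most 0.66. With the 6-week reversal turned, its 6-week mean was 0.03.

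Rab37, a granule Rab best known in mast cells, had 0.37, -1.53 and -0.36 at 6 weeks and 0.28, 0.28 and 0.15 at 1 week. Its 6-week mean was -0.47 ± 0.18, with an unadjusted p of 0.0466. The fit averaged the dye pair, whose arrays lay at 0.37 and -1.53, before it estimated the spread. The mean was 0.01 without the dye-reversed arrays, and the reversal itself rested on spots of -0.18 and -2.88. The other exocytic members were Rab3a, Rab3b, Rab3c, Rab3d, Rab10 and Rab13, with 6-week means between -0.19 and 0.20 and 1-week means between -0.28 and 0.42. Rab3c had 1.06, -1.72 and 0.31 on the 6-week arrays, with spots up to 2.59 apart. Its 6-week mean of -0.01 was 0.69 without the dye-reversed arrays and 0.85 with the 6-week reversal turned. With that reversal turned, the 6-week mean of Rab3a went from 0.20 to -0.21. Rab13, which is linked to tight junctions, was chosen here after its values were seen. It had 2.05 on the third 1-week array and -0.34 and -0.46 on the others, and the spots behind the high value read 4.13 and -0.03.

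Among the members classed as other, Rab28, a ciliary Rab, had 0.74, 0.00 and 0.36 at 6 weeks and 0.73, 1.83 and 0.84 at 1 week. It was positive on 5 arrays and listed at a fold of exactly 1.00 on the 6-week dye reversal. Its mean was 0.36 ± 0.31 at 6 weeks and 1.13 ± 0.26 at 1 week, with an unadjusted p of 0.00572 and an adjusted p of 0.564 for the 1-week ratio, which was 0.65 with both reversals turned. Its spots differed by up to 1.68. On the third 1-week array 1 spot read 1.68 and the other was at exactly 1.00-fold. Over all spots such values made up 6.76% to 12.6% of an array, while 1.93% to 3.91% lay at 1.01-fold. Values at exactly 1.00-fold made up 2.2% to 5.11% of named spots and 17.6% to 35.3% of unnamed spots. Of the 636 member spot values 18, in 13 members, were among them. The sources used here do not say what they stand for.

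Rab32, a Rab of lysosome-related organelles and mitochondria, had 1.27, 0.39 and 0.14 on the 6-week arrays and -0.41, -0.40 and -0.38 on the 1-week arrays, so that the groups had opposite signs. The difference of 0.88 ± 0.29 had an unadjusted p of 0.0272 and an adjusted p of 0.951 in limma. With both reversals turned it was 0.42, and the 1-week ratio -0.12. Both spots were positive on 1 of the 6-week arrays, and negative on all 1-week arrays. Its paralog Rab38 had -0.21, -0.12 and -0.19 at 6 weeks and 0.05, -0.23 and 0.28 at 1 week. Arl14, an Arl protein of vesicle movement, had 0.37, -0.06 and -0.26 at 6 weeks and -0.12, -0.50 and -0.26 at 1 week. The remaining 5 of the 9, Arl2, Arl3, Rab23, Rab24 and Rab34, had 6-week means between -0.42 and 0.13 and 1-week means between -0.22 and 0.31.

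**Figure D2:**
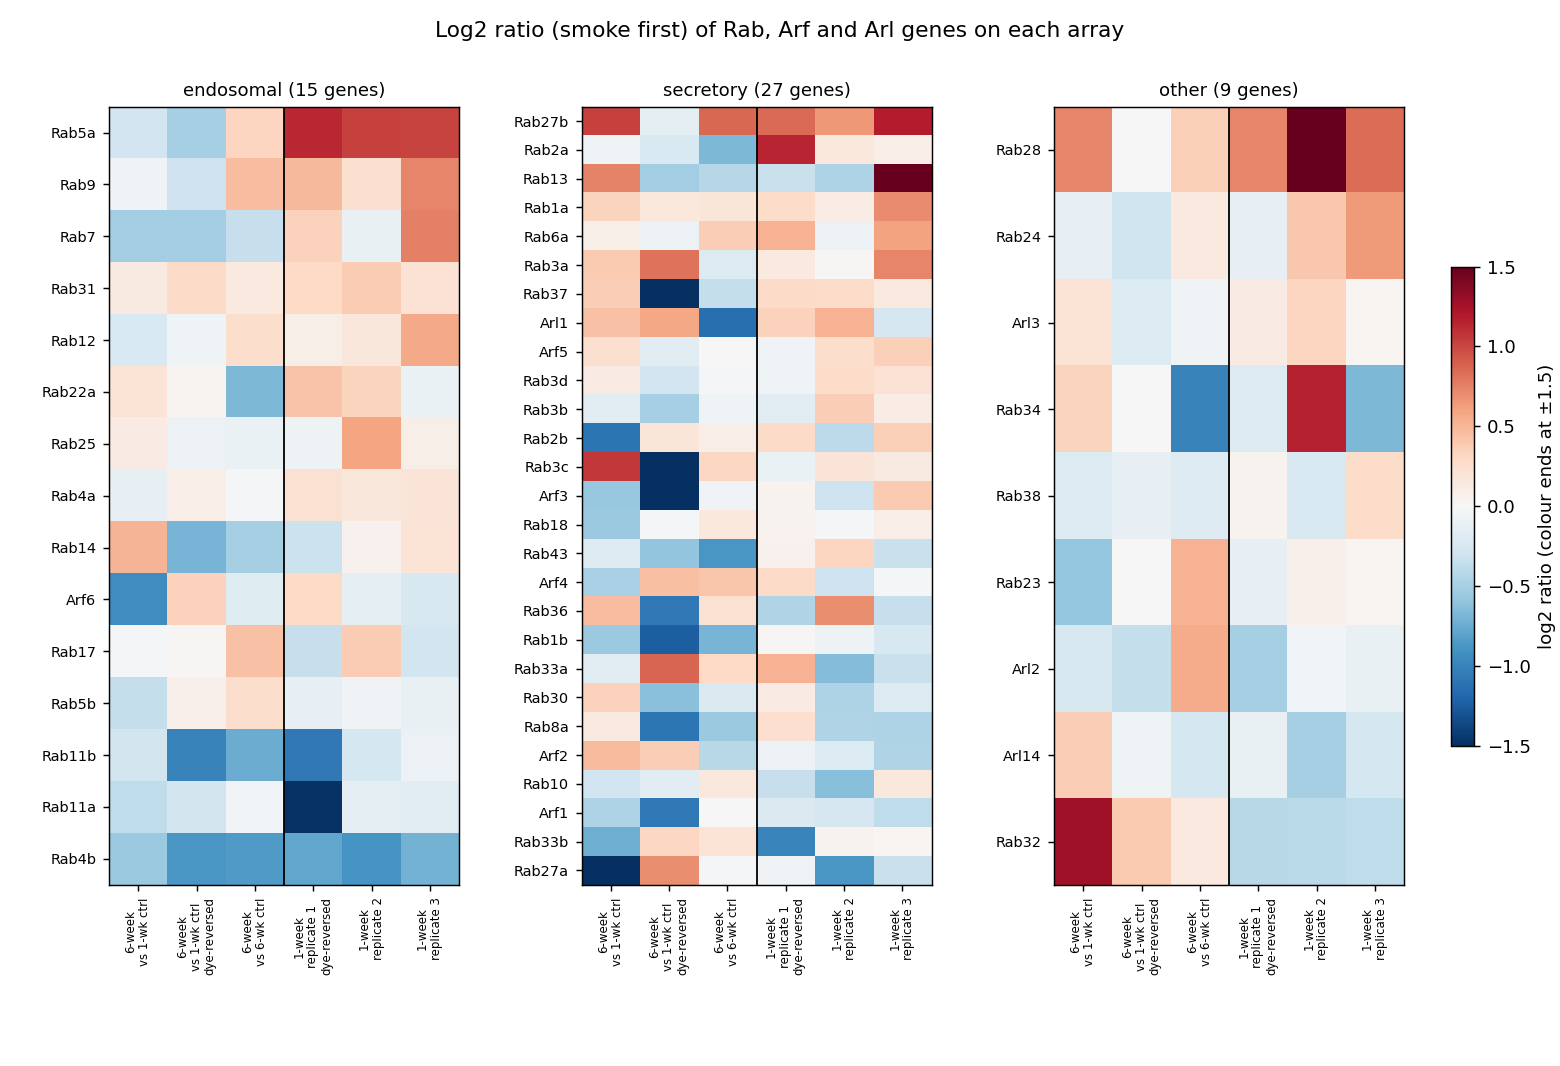
Log2 ratio, smoke first, of each of the 51 genes on each of the 6 arrays, 6-week arrays left of 1-week arrays, with genes of each class ordered by their 1-week mean and colours that end at ±1.5. Rab5a lies at 1.02 to 1.13 on the 1-week arrays, and Rab4b lies between -0.88 and -0.56 on all 6 arrays.

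The rule for these genes asked for endosomal and secretory members to be set side by side on all arrays. The median log2 ratio of the 15 endosomal members was -0.23, -0.09 and -0.04 on the 6-week arrays and 0.09, 0.17 and 0.09 on the 1-week arrays. For the 27 secretory members it was 0.09, -0.16 and -0.01 on the 6-week arrays and 0.05, -0.03 and 0.11 on the 1-week arrays. Endosomal minus secretory was therefore -0.32, 0.07 and -0.03 at 6 weeks and 0.04, 0.20 and -0.02 at 1 week, with both signs at each time. From the fitted means the difference between the medians was 0.02 at 6 weeks and 0.15 at 1 week, and without the second 1-week array the 1-week difference was -0.05. No order of the classes held on every array of either time with the deposited signs. Turning a dye-reversed array turns the sign of its medians. With the 6-week reversal turned, endosomal minus secretory was negative on every 6-week array.

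The fitted 6-week means were positive for 5 endosomal members and negative for 10, and positive for 8 secretory members and negative for 19. At 1 week 8 endosomal members were positive and 7 negative, and 16 secretory members were positive and 11 negative. Over all 51 members the median was -0.05 at 6 weeks, with 34 negative, and 0.04 at 1 week, with 22 negative. With the 6-week dye reversal turned, the 6-week median was 0.035 for all members, 0.0017 for endosomal and 0.049 for secretory members. The negative 6-week medians thus hold for the deposited signs only. Of 11138 named genes 5683 were negative at 6 weeks and 5688 at 1 week, and their median was -0.01 at both times. The 6-week minus 1-week difference was negative for 36 of the 51 members, beside 5544 of the 11138 named genes. Its median was -0.19 for the members, beside 0.00 for all named genes. The median of the members was -0.08 with the 6-week dye reversal turned. In the same contrast 11 of 14 mural and fibroblast markers were positive with a median of 0.31, and their median per array was -0.16, 0.17 and 0.10 at 6 weeks and 0.01, -0.29 and -0.06 at 1 week. For the other marker lists the median difference was -0.07 for endothelial, -0.01 for leukocyte, 0.04 for epithelial, 0.09 for adipocyte and 0.05 for erythroid markers. Their part in the result was not tested.

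**Figure D3:**
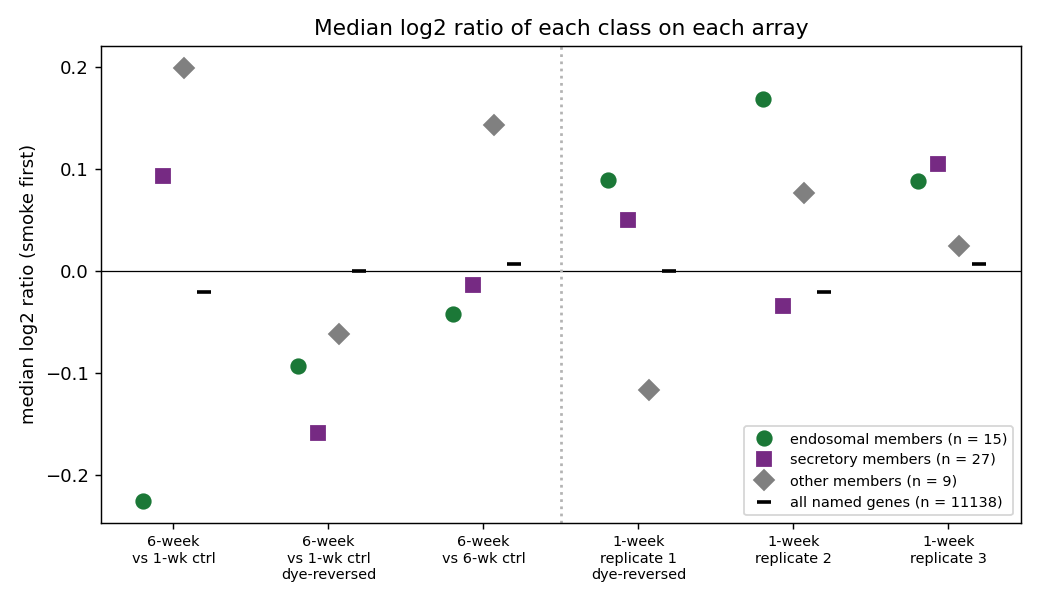
Median log2 ratio, smoke first, of endosomal, secretory and other members and of all named genes on each array, 6-week arrays on the left. With the deposited signs, the endosomal medians lie between -0.23 and -0.04 on the 6-week arrays and between 0.09 and 0.17 on the 1-week arrays. The secretory medians lie on both sides of 0 at each time. Turning a dye-reversed array turns the sign of its medians.

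All 3 6-week arrays had one sign for 13 members, or 25.5%, beside 24.1% of named genes. All 3 1-week arrays had one sign for 22 members, or 43.1%, beside 30.5% of named genes. One sign on all 6 arrays was found for 5 members, Rab11a, Rab11b, Rab1a, Rab31 and Rab4b, or 9.8%, beside 6.67% of named genes. Opposite signs, with every 6-week array on one side of 0 and every 1-week array on the other, were found for Rab2a and Rab32. These 2 were 3.92% of the members, beside 2.66% of named genes. These sign counts hold for the deposited signs, since turning a dye-reversed array turns its value. Rab11b and Arf1 did not keep the sign of their average when both dye reversals were given the other sign, where they were 0.02 and 0.01.

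**Figure D4:**
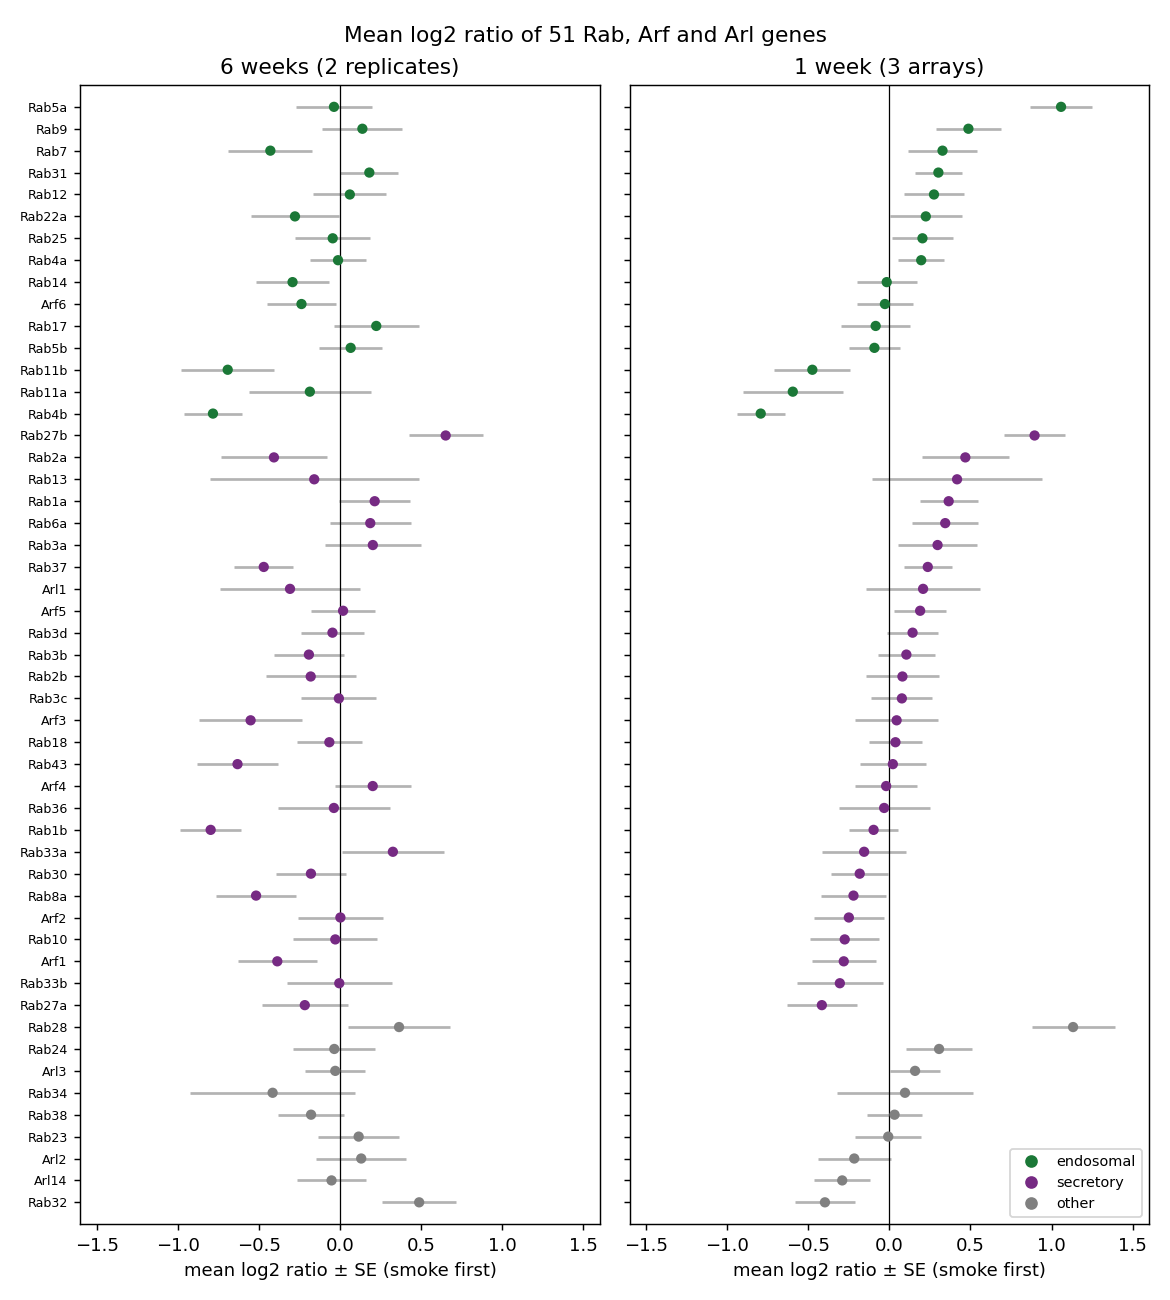
Mean log2 ratio, smoke first, with SE for each of the 51 genes, with 6 weeks (2 replicates) left of 1 week (3 arrays), coloured by class. Rab28 at 1.13 and Rab5a at 1.06 have the highest 1-week means, and Rab1b at -0.80 and Rab4b at -0.78 the lowest 6-week means.

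The genes that work with these GTPases were read from 4 lists. Of regulators, which load, extract or switch off the GTPases, 43 were measured, and at 1 week 18 were positive and 25 negative with a median of -0.03. The smallest p belonged to Chml, a Rab escort protein, at 1.13 ± 0.22 with an unadjusted p of 0.00272 and an adjusted p of 0.464, but its spots differed by up to 4.20. Rabggtb, a subunit of the enzyme that attaches the lipid anchor of Rab proteins, followed at 0.69 ± 0.17, then Trappc6a at -0.70 ± 0.22, Rabac1 at -0.66 ± 0.24 and Tbc1d7 at 0.58 ± 0.22, with spots up to 4.29 apart. No regulator was called over all features or among the 20 with agreeing spots, to which Chml and Tbc1d7 do not belong.

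Of effectors and tethers 41 were measured, 17 positive and 24 negative at 1 week with a median of -0.02. Arfip2, which binds Arf and Rac proteins, was at -0.52 ± 0.19, Rabep2, a Rab5 effector, at -0.46 ± 0.17 and Uso1, the Golgi tether that works with Rab1, at 0.40 ± 0.16. Golga4 and Sytl2 had 0.48 ± 0.21 and -0.45 ± 0.20. None was called. Of coats and adaptors 44 were measured, 21 positive and 23 negative at 1 week with a median of -0.01, and none was called. Copb1, a subunit of the COPI coat, was at 0.69 ± 0.20, Sec24d and Sec23b of the COPII coat were at 0.47 ± 0.15 and 0.41 ± 0.16, Ap2b1 of the clathrin adaptor was at -0.47 ± 0.17, and Lman1, a cargo receptor, was at 0.78 ± 0.32. The spots of Ap2b1 and Lman1 differed by up to 3.05 and 1.51.

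Of the SNAREs, which drive membrane fusion, and their partners 38 were measured, with 19 of each sign and a median of 0.01 at 1 week. Stxbp3, a syntaxin-binding protein of the plasma membrane, had -0.24, 0.18 and 0.03 at 6 weeks and 0.97, 0.65 and 0.86 at 1 week. Its 1-week arrays all lay above its 6-week arrays. Its 1-week mean was 0.82 ± 0.15, with an adjusted p of 0.455 over all features in limma. Among genes with agreeing spots, of which 1.81% were called at 1 week, its adjusted p was 0.0304. This call was lost with both reversals turned, where 0 such genes were called at 1 week. Stx7, a late endosomal syntaxin, was positive on all 6 arrays, at 0.63, 0.47 and 0.61 at 6 weeks and 0.92, 0.57 and 0.66 at 1 week. Its average over both times had an adjusted p of 0.0358 in limma among genes with agreeing spots, of which 1.83% were called. That call was lost with the 6-week reversal turned, where 0 such genes were called for the average. Of 23 genes of this list with agreeing spots, 1 was called at 1 week and 1 for the average. Stx12 at 0.57 ± 0.19, Stx8 at -0.43 ± 0.16 and Vti1b at -0.46 ± 0.19 were not called at 1 week, and the spots of Stx12 differed by up to 1.29.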

How the data were processed

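The deposited value table holds 1 log2 ratio per spot on each of 6 arrays. Per the labels, smoke RNA is channel 1 and control RNA channel 2. The scanner, background correction, normalization, dye assignment, log base and direction are not given in the sources used here. Turned into folds, 99.9877% of the deposited log2 values on 1 array and 100% on the others are multiples of 0.01 (tolerance 0.02 of that step), and each array has a median near 0. No intensities were analysed here, so dim spots could not be told from bright ones, and precision is limited by how few arrays there are.

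Of 32448 spots, 24344 had 1 symbol in the probe table, 98 had several and 8006 were not listed. Of the named spots, 24076 matched the RefSeq gene table of GRCm38.p6 by Entrez identifier, and 0 symbols changed. Spots of a symbol were averaged, giving 11138 named genes among 19242 tested features. Each array was centred on its median with its deposited sign. The dye pair of 6-week smoke against 1-week control was averaged to 1 replicate, which left 2 replicates at 6 weeks and 3 at 1 week. The 1-week dye reversal counted as a replicate of its own, although no label says whether it repeats another RNA. Limma 3.58.1 in R 4.3.3 (lmFit, eBayes) fitted a coefficient for each exposure time, with 3 residual degrees of freedom. Tests were two-sided, with Benjamini-Hochberg adjustment over all features, or over the 5625 genes with agreeing spots in that alternative, and a threshold of 0.05. The SE of a mean uses 1 spread per gene over all replicates.

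The members, classes and lists were chosen with earlier results of these data known. Values are given array by array for the 6 members of each sign with the smallest p in the 1-week, 6-week and average contrasts, for members called, and for the Rab1, Rab5, Rab7, Rab8, Rab11 and Arf paralogs; for related lists, for up to 5 genes with the smallest 1-week p and any called. Rab3c, Rab4a, Rab38, Rab2a and Rab13 fall outside this rule and were added after their values were seen. Alternatives changed the sign of the dye-reversed arrays, centring, scale, spot summary and agreement, variance model, averaging of the dye pair, control age and each array in turn. The code was tested on simulated data.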

Additional observations from a re-analysis of the deposited data

Results flagged for a closer look

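Rab32 had positive log2 ratios on all 3 6-week arrays, at 1.27, 0.39 and 0.14, and negative ones on all 3 1-week arrays, at -0.41, -0.40 and -0.38. The 6-week minus 1-week difference was 0.88 ± 0.29, with an unadjusted p of 0.0272 and an adjusted p of 0.951 in limma. With both dye-reversed arrays given the other sign, the difference was 0.42 and the 1-week ratio -0.12. Its single spots were 0.99 and -0.21 on the 6-week dye reversal and 0.40 and -0.11 on the array against 6-week control.

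Rab2a, which acts between the endoplasmic reticulum and Golgi, went the other way. Its ratios were -0.06, -0.22 and -0.67 on the 6-week arrays and 1.15, 0.15 and 0.11 on the 1-week arrays. The difference was -0.88 ± 0.42, with an unadjusted p of 0.0889 and an adjusted p of 0.951 in limma, and -0.50 without the dye-reversed arrays. With both of these given the other sign, the difference was -0.00014 and the 1-week ratio -0.30, so the opposite signs were gone. The highest value, on the 1-week dye reversal, rested on spots of 0.21 and 2.08. Both genes stand here because their arrays of the 2 exposure times lay on opposite sides of 0, as they did for 2.66% of named genes.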

How the results depend on the processing

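No paired analysis was possible because the labels give no replicate numbers and each array already sets smoke beside control. No named member was called over all features, so keeping a side of the threshold says little there. Of 33 values of the members called among genes with agreeing spots under alternatives, 22 lost the call and 11 kept it. Among ratios of the members named for the smallest p, 12 values turned their sign. Other described ratios are not in this count. Of these, the negative 6-week ratios of Arf1, Arf3 and Rab5a were 0.15, 0.22 and 0.21 with the 6-week reversal turned. The number of arrays, the unknown sign of the dye-reversed arrays and disagreeing spots limit all results, and the cause was not tested where a value changed.

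With the 6-week dye reversal given the other sign, alone or together with the 1-week reversal, the 6-week ratio was -0.11 for Rab33a, 0.29 for Rab37 and 0.027 for Rab8a. With both turned, the 1-week ratio was 0.24 for Rab11b and 0.39 for Rab11a, and the average of both times was 0.025 for Rab11b and 0.0090 for Arf1. Without the dye-reversed arrays Rab37 was at 0.0054 at 6 weeks. The median 6-week minus 1-week difference of all members was -0.085 with the 6-week reversal turned and -0.072 with both turned, and with both turned it was -0.00014 for secretory members, while the average of all members was 0.068. Endosomal minus secretory was 0.16 for the average of both times without dye-reversed arrays. When the array against 6-week control had its own term, the 6-week median was -0.15 for all members and -0.21 for secretory members, and endosomal minus secretory was 0.11 for the difference between times.

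Genes with spots within 1 log2 unit gave 102 calls at 1 week, 2 of them members, 12 at 6 weeks and 103, with 1 member, for the average. The 1-week median of the 27 members left was 0.16. With spots within 0.5 log2 unit there were 99, 14 and 102 calls, and 1 for the difference, none of them a member. Rab5a and Rab27b could not be called there, since their spots differed by up to 0.68 and 0.90 and they were not tested. The endosomal members left at that limit were Rab7, Rab11a, Rab12 and Rab25. The secretory ones were Arf4, Rab1a, Rab6a and Rab43, and Rab38 was the only other. There the 1-week median was 0.20 for all members left and 0.18 for the secretory ones, with endosomal minus secretory at 0.057. At 6 weeks the median of these secretory members was 0.19 and endosomal minus secretory -0.31. For the average the median was 0.079 for all members left and 0.18 for the secretory ones, with endosomal minus secretory at -0.16. With named genes only, 2 features were called at 1 week and 5 for the average. Counting the 6 arrays as separate replicates gave 6 calls for the average. Without variance moderation 5 were called at 6 weeks, 5 for the difference and 3 for the average.

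Among genes with agreeing spots, with the 6-week reversal turned, 0 genes were called at 6 weeks, 1 for the difference and 0 for the average, members included. With both reversals turned, 0 genes were called at 1 week, at 6 weeks and for the average. Without dye-reversed arrays 18 were called at 1 week with 0 members, 1 at 6 weeks and 37 for the average. Averaging the 1-week reversal with replicate 2 or 3 left 29 or 30 calls at 1 week, with 0 members, where the adjusted p was 0.0851 or 0.091 for Rab5a and 0.0879 or 0.122 for Rab27b. These alternatives were chosen after seeing the data.

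Leaving out 1 array at a time gave 0 to 2 members and 1 to 84 genes called at 1 week among genes with agreeing spots, 0 to 21 genes at 6 weeks, 0 to 1 for the difference, and 0 to 138 genes with 0 to 1 member for the average. The 1-week endosomal median ranged from 0.026 to 0.20 and endosomal minus secretory from -0.048 to 0.15, or from -0.14 to 0.11 for the difference between times. At 6 weeks the median of all members ranged from -0.15 to 0.0054 and that of secretory members from -0.21 to -0.033, and Rab37 from -0.95 to 0.0054.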
